A study of Homo sapiens with 18 samples.

Results

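Plasminogen activators turn plasminogen into plasmin, a protease that degrades fibrin and matrix at the cell surface. PLAU encodes urokinase, which is bound at the surface by the receptor PLAUR, and PLAT encodes tissue-type plasminogen activator, best known for its action on fibrin. SERPINE2 encodes protease nexin-1, a serpin that inhibits urokinase, thrombin and plasmin, and SERPINB2 encodes plasminogen activator inhibitor 2, a serpin that is largely kept inside the cell. In the kidney, tubule epithelium is a source of urokinase, and the balance between activators and inhibitors is studied for its part in matrix turnover during fibrosis.

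These 5 genes were chosen by name, through every row of the table of unnormalized values that carries 1 of their symbols. The rule found 8 of 48803 probes: 1 each for PLAU, PLAT and SERPINE2, 3 for PLAUR and 2 for SERPINB2. Among them, 4 genes were detected widely enough to be tested beside 12468 genes in all, and SERPINB2 was not. On the GRCh38.p14 assembly, RefSeq places SERPINE2 at chr2:223975045-224039286, PLAT at chr8:42174718-42207565, PLAU at chr10:73908832-73917494, SERPINB2 at chr18:63887705-63903888 and PLAUR at chr19:43646095-43670169.

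The cells were HK-2, a single immortalised line derived from human proximal tubule, used at passages 18 to 30 in medium with 5 mM glucose after a night without serum. The 6 groups had 3 flasks and 3 arrays each: untreated controls for 18 h and 48 h, C-peptide (5 nM) for 18 h and 48 h, TGF-beta1 (2 ng/mL) for 48 h, and the 2 agents together for 48 h. C-peptide is the connecting fragment cut out of proinsulin, TGF-beta1 is a growth factor known for its part in fibrosis, and the study set the response to each agent against the response to both. P-values measure the spread between flasks of this 1 line.

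Each array detected 14580 to 15818 probes, with a median of 40 to 42 beads behind a value. The array numbers in the table fall into 3 consecutive sets: the 48 h controls and TGF-beta1 alone, the pair of 48 h groups that received C-peptide, and the pair of 18 h groups. TGF-beta1 and 18 h C-peptide comparisons therefore lie within a set, whereas at 48 h C-peptide and the array set cannot be told apart, and neither can time and array set in the controls. C-peptide 18 h replicate 3 stood apart, with an array weight of 0.17 where the other 17 arrays had 0.41 to 3.15 (an array weight is high where an array's genes lie close to their group means). The 5 TGF-beta response genes used to check the labels, among them PMEPA1, COL1A1 and TGFBI, were called higher in both TGF-beta1 comparisons. Of 12 epithelial and tubule markers, PAX2, ANPEP, CUBN and AQP1 were detected on no array. ANPEP, CUBN and AQP1 are defining proximal tubule genes. Leukocyte (6 of 7), endothelial (6 of 7) and fibroblast (3 of 7) markers also included genes that no array detected. PTPRC, CD14, VWF, CDH5, THY1, COL1A2 and COL3A1 were among these. The other fibroblast markers were detected, LUM and PDGFRA on 18 of 18 arrays, DCN on 8 and PDGFRB on 6. CSF1R and PECAM1 were each detected on 6 arrays.

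Promoter windows are shown for PLAUR and SERPINE2, the 2 members whose TGF-beta1 and control arrays at 48 h did not overlap. In that comparison 58.5% of all genes did not overlap. With C-peptide present PLAU did not overlap either, where 55.4% of all genes did not. Each window runs from 250 bases before to 50 bases after a RefSeq start site (GRCh38.p14), both genes lie on the minus strand, and SERPINE2 has 2 start sites in the table. Promoter windows were found for 4 of the 5 genes. Capitals mark, on either strand, the AP-1 motif TGANTCA, the SMAD box CAGAC and the GC box GGGCGG, and the marked matches do not overlap.
PLAUR, chr19:43670120-43670419: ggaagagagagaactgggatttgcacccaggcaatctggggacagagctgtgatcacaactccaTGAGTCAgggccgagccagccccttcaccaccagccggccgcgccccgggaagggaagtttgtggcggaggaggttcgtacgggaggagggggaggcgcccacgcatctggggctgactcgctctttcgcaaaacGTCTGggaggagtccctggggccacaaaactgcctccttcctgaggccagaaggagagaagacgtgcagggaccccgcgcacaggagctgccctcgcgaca
SERPINE2, chr2:224031429-224031728: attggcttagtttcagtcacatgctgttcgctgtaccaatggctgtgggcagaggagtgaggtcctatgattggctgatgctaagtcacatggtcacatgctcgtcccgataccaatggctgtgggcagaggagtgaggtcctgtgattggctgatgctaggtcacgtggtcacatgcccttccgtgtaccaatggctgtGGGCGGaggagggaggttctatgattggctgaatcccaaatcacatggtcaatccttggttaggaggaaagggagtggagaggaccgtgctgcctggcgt
SERPINE2, chr2:224038591-224038890: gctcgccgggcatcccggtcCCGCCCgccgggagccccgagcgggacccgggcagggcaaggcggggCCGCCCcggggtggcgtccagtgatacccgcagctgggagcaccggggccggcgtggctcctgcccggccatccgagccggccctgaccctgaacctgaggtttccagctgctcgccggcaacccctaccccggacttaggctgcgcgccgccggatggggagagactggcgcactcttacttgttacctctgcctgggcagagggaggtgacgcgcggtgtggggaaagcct
The PLAUR window held 1 AP-1 match, which begins 186 bases upstream of the start, and 1 SMAD box. The SERPINE2 windows held neither, with 1 GC box in one window and 2 in the other. The SERPINB2 window, not shown, had 1 AP-1 match 102 bases upstream of the start, 2 SMAD boxes and 1 TATA box (TATAAA). Both PLAU windows lacked the AP-1 motif and held 2 and 1 SMAD boxes. Among all 35116 windows of 300 bases, 7.7% held the AP-1 motif, 45.3% the SMAD box, 45.0% the GC box and 11.5% the TATA box. These matches describe the letters of the windows.

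Urokinase passed the test in 0 of 8 comparisons, and its group means lay between 12.10 and 12.37. All levels below are log2 normalized intensities of the probe that stands for the gene, and levels of different probes are not comparable with each other. PLAU measured 12.30, 12.33 and 12.19 in the 48 h controls and 12.33, 12.32 and 11.98 with TGF-beta1. It measured 12.32, 12.23 and 12.28 with C-peptide for 48 h and 12.05, 12.16 and 12.10 with both agents. The 18 h controls stood at 12.41, 12.32 and 12.36, and C-peptide for 18 h at 12.28, 12.17 and 12.01. The control and TGF-beta1 arrays overlapped. The 3 arrays with both agents lay below the 3 with C-peptide alone, a comparison in which 55.4% of all genes did not overlap. At 18 h the 3 C-peptide arrays lay below their controls, where 19.3% of all genes did not overlap.

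The PLAU difference was -0.06 for TGF-beta1 against control (SE 0.09, 95% CI -0.24 to 0.12, adjusted p = 0.606). With C-peptide present, the TGF-beta1 difference was -0.17 (SE 0.09, 95% CI -0.35 to 0.01, adjusted p = 0.112). Neither passed the threshold of an adjusted p under 0.05. The second was called when only its own 6 arrays were fitted (-0.17, adjusted p = 0.041), where 47.2% of all genes were called. In the order of the group means, from 12.37 in the 18 h controls to 12.10 with both agents, only the highest group and its neighbour did not overlap.

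Tissue-type plasminogen activator was detected at a low intensity and passed the test in 0 of 8 comparisons. The deposited intensity of the PLAT probe was 41.6 to 97 units, detected on 18 of 18 arrays. Its log2 level was 6.25, 6.47 and 6.30 in the 48 h controls and 6.28, 6.55 and 6.12 with TGF-beta1. The TGF-beta1 range enclosed the control range, and the difference was -0.02 (SE 0.14, 95% CI -0.31 to 0.27, adjusted p = 0.92). C-peptide for 48 h gave 6.44, 6.11 and 6.45, and both agents gave 6.36, 6.40 and 6.23, again overlapping (TGF-beta1 with C-peptide against C-peptide, 0.00, SE 0.14, 95% CI -0.29 to 0.29).

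PLAT levels at 18 h were 6.66, 6.84 and 6.47 in the controls and 6.48, 6.45 and 6.86 with C-peptide. All 3 control arrays at 18 h were above all 3 at 48 h, by a narrow margin, and 25.8% of all genes likewise did not overlap. The 48 h minus 18 h difference of the controls was -0.32 (SE 0.14, 95% CI -0.61 to -0.03, adjusted p = 0.187). It became 0.03 under median scaling, which shifted all genes by 0.36 in this comparison. With array weights it was -0.42 (adjusted p = 0.0183), where 23.4% of all genes were called.

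**Figure D1:**
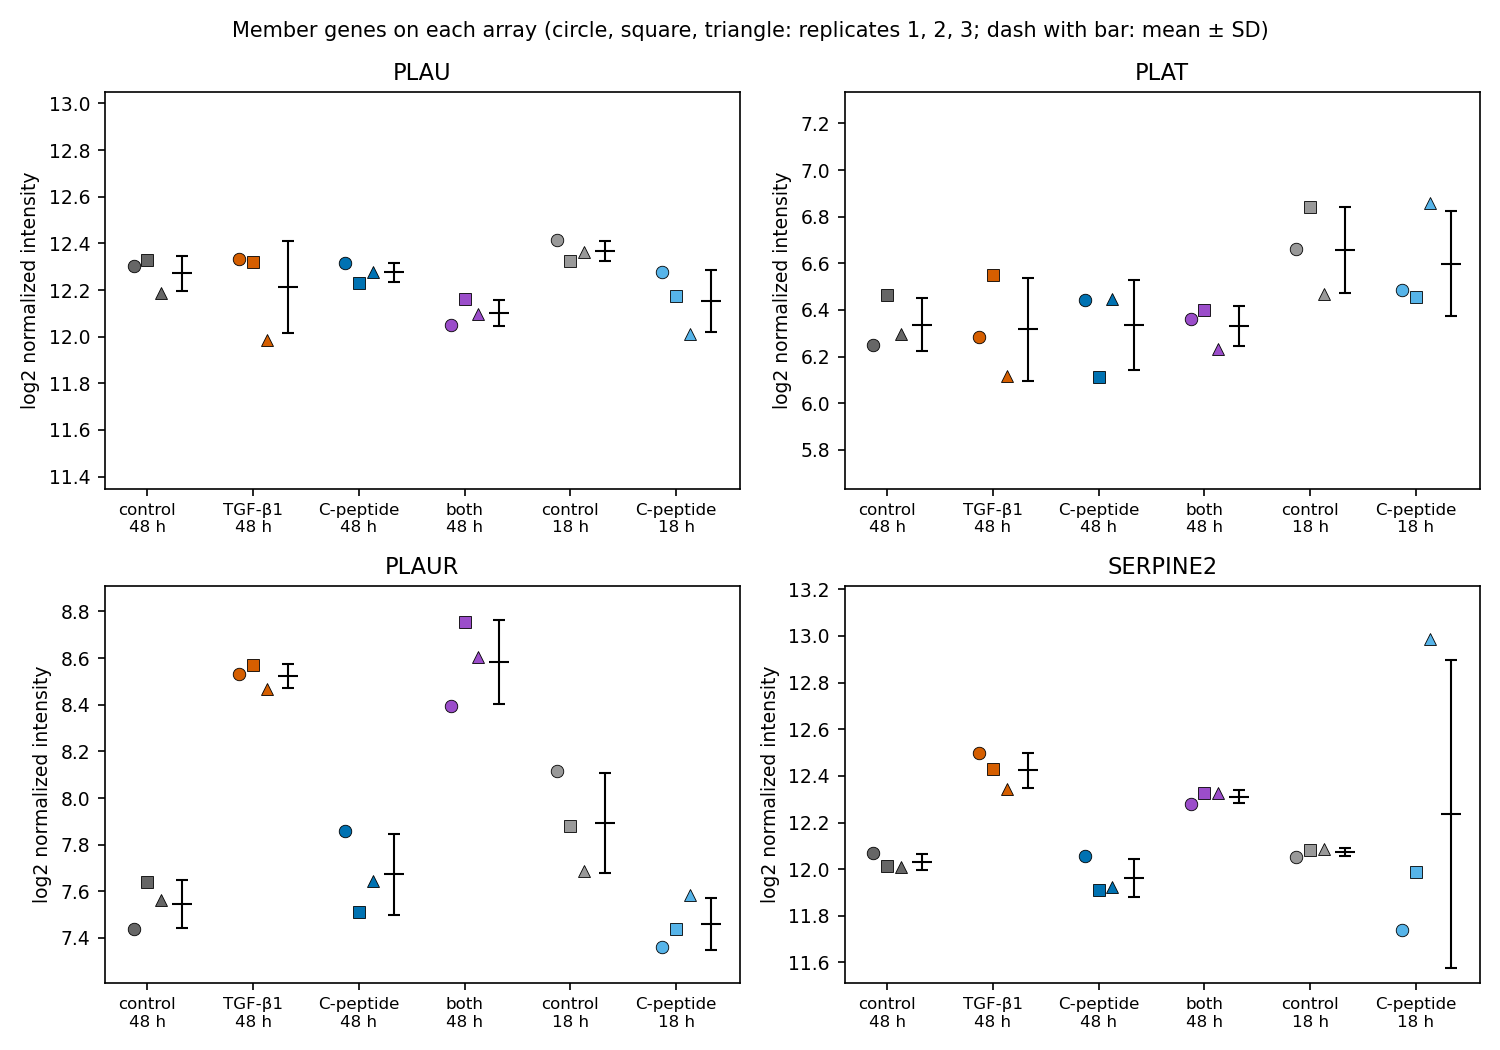
Log2 normalized intensity of PLAU, PLAT, PLAUR and SERPINE2 on each of the 18 arrays, by group, with replicates 1 to 3 as circle, square and triangle and the group mean ± SD beside them. Each panel spans the same height on the log2 scale: PLAUR stands apart in both TGF-beta1 groups, and SERPINE2 is higher there with little spread, except for the single high C-peptide array at 18 h (12.99).

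The urokinase receptor was the only member called higher with TGF-beta1, where 21.9% of all genes were called higher. PLAUR measured 7.44, 7.64 and 7.56 in the 48 h controls and 8.53, 8.57 and 8.47 with TGF-beta1. After 48 h of C-peptide it measured 7.86, 7.51 and 7.64, and with both agents 8.39, 8.75 and 8.61. Every TGF-beta1 array was above every array without it, the 18 h arrays included. Between TGF-beta1 and control at 48 h 58.5% of all genes did not overlap, and 55.4% with C-peptide in both groups.

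PLAUR rose by 0.98 with TGF-beta1 (SE 0.12, 95% CI 0.73 to 1.22, 1.97-fold, adjusted p = 1.12e-06) and by 0.91 when C-peptide was also present (SE 0.12, 95% CI 0.66 to 1.16, 1.88-fold, adjusted p = 3.06e-06). These comparisons share no arrays. PLAUR was the only 1 of the 4 tested members called in either comparison, where 45.1% of all genes were called for TGF-beta1 against control (21.9% higher) and 43% for TGF-beta1 with C-peptide against C-peptide (21.3% higher). A call is therefore common here, and the size ranks the gene: 7.12% of genes had a larger absolute difference than PLAUR without C-peptide and 7.81% with it. The 4 groups without TGF-beta1 ran in order from a mean of 7.89 in the 18 h controls to 7.46 with C-peptide at 18 h, and each overlapped its neighbour in that order.

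The other 2 PLAUR probes also rose. Probe ILMN_2408543 measured 6.23, 6.39 and 6.28 in the 48 h controls and 7.20, 7.50 and 7.60 with TGF-beta1, and rose by 1.13 (SE 0.14, adjusted p = 1.82e-06). Probe ILMN_1691508 measured 5.56, 6.02 and 5.78 in the controls and 6.91, 6.83 and 6.69 with TGF-beta1, and rose by 1.03 (SE 0.20, adjusted p = 0.000286). Neither probe overlapped between the groups, where 58.5% of all genes did not overlap. With C-peptide present they rose by 1.05 (SE 0.14) and 0.91 (SE 0.20), both called in a fit over all probes in which 44.4% and 42.3% of probes were called without and with C-peptide. The 3 probes read the same RNA and are not replicates of the condition.

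**Figure D2:**
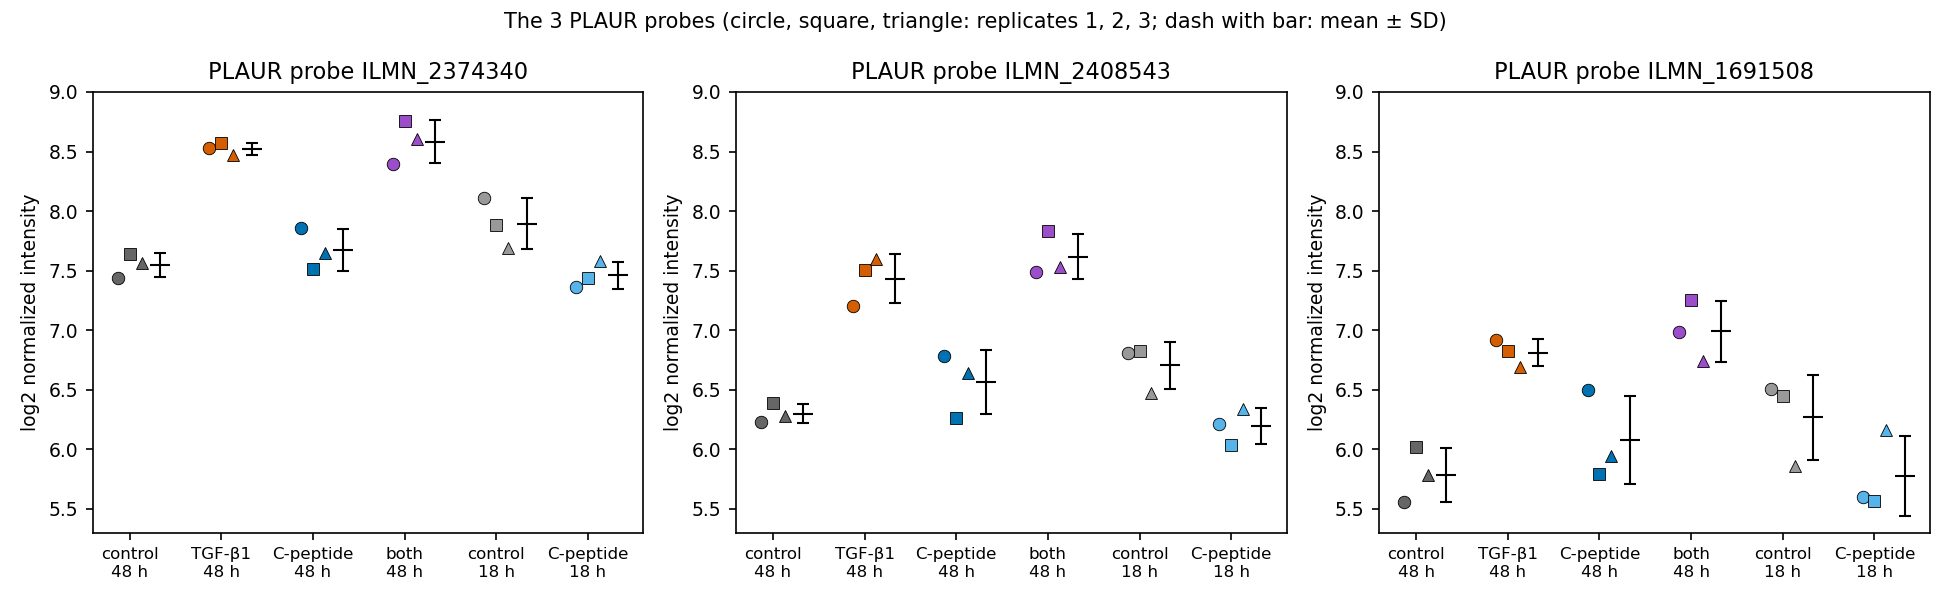
Log2 normalized intensity of the 3 PLAUR probes on the 18 arrays, by group, with replicates as circle, square and triangle and the mean ± SD beside them. In each panel the 6 arrays with TGF-beta1 lie above the 6 arrays of their 48 h control and C-peptide groups, by 1.03, 0.98 and 1.13 without C-peptide for probes ILMN_1691508, ILMN_2374340 and ILMN_2408543.

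Levels of some markers of other cells differed between the 48 h control and TGF-beta1 arrays, where 45.1% of all genes were called. The summed normalized intensity of the 7 leukocyte markers was 97.3 to 105.9 in the 48 h controls and 207.7 to 284.3 with TGF-beta1. CSF1R carried this rise, at least 3.82-fold higher, and the other 6 markers were detected on no array. For the 7 distal tubule and collecting duct markers the sum was 290.9 to 320.3 in the controls and 59.3 to 64.8 with TGF-beta1. SCNN1A, the alpha subunit of the epithelial sodium channel, was at least 5.44-fold lower and ATP6V1B1, a proton pump subunit, at least 1.30-fold lower, while UMOD, SLC12A1, SLC12A3, AQP2 and CALB1 were undetected throughout. The epithelial sum was 15562 to 17020.4 in the controls and 12615.5 to 13542 with TGF-beta1, and the fibroblast sum 2096.1 to 2208.7 and 2238.6 to 2499.2. The endothelial sum, 69.6 to 80.6 and 67.7 to 78.1, overlapped between the groups. PECAM1, the only tested endothelial marker, was at least 1.17-fold higher (adjusted p = 0.0027). Of 4 tested fibroblast markers 2 rose, DCN by 0.76 (SE 0.23, adjusted p = 0.0103) and PDGFRB by at least 1.5-fold (adjusted p = 1.09e-06), and the median of the 4 was 0.44. These 2 of 4 stand beside 45.1% of all genes called, 21.9% higher, and such a share called is near the background. The part of these shifts in the member values was not tested. Every array held bulk RNA of the HK-2 line, in which a change in the number of cells that carry a transcript and a change in its amount per cell cannot be told apart.

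Protease nexin-1 was higher on every TGF-beta1 array, but its call depended on a single array of another group. SERPINE2 measured 12.07, 12.01 and 12.01 in the 48 h controls and 12.50, 12.43 and 12.35 with TGF-beta1. After 48 h of C-peptide it measured 12.06, 11.91 and 11.92, and with both agents 12.28, 12.33 and 12.32. The groups did not overlap in either comparison, nor did they for 58.5% and 55.4% of all genes.

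The SERPINE2 difference was 0.39 without C-peptide (SE 0.18, 95% CI 0.02 to 0.77, 1.31-fold, adjusted p = 0.0826) and 0.35 with it (SE 0.18, 95% CI -0.03 to 0.72, 1.27-fold, adjusted p = 0.128), and neither was called. The SE is pooled over all 6 groups. Within the 4 groups just named the SD was 0.03 to 0.08, and within C-peptide for 18 h it was 0.66, where the replicates read 11.74, 11.99 and 12.99. The third value comes from the array that stood apart. Left out, that array took the SE to 0.07, and both differences were called at the same size (0.39, adjusted p = 4.28e-05, and 0.35, adjusted p = 0.000192). This fit, which was not planned for these comparisons, called 49.7% and 47.5% of all genes. Both differences were also called in fits of their own arrays alone (adjusted p = 9.87e-05 and 0.000545), where 52.1% and 47.2% of all genes were called. The same held with array weights (0.37, adjusted p = 0.00111, and 0.37, adjusted p = 0.000636), where 55.5% and 56.9% of all genes were called.

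**Figure D3:**
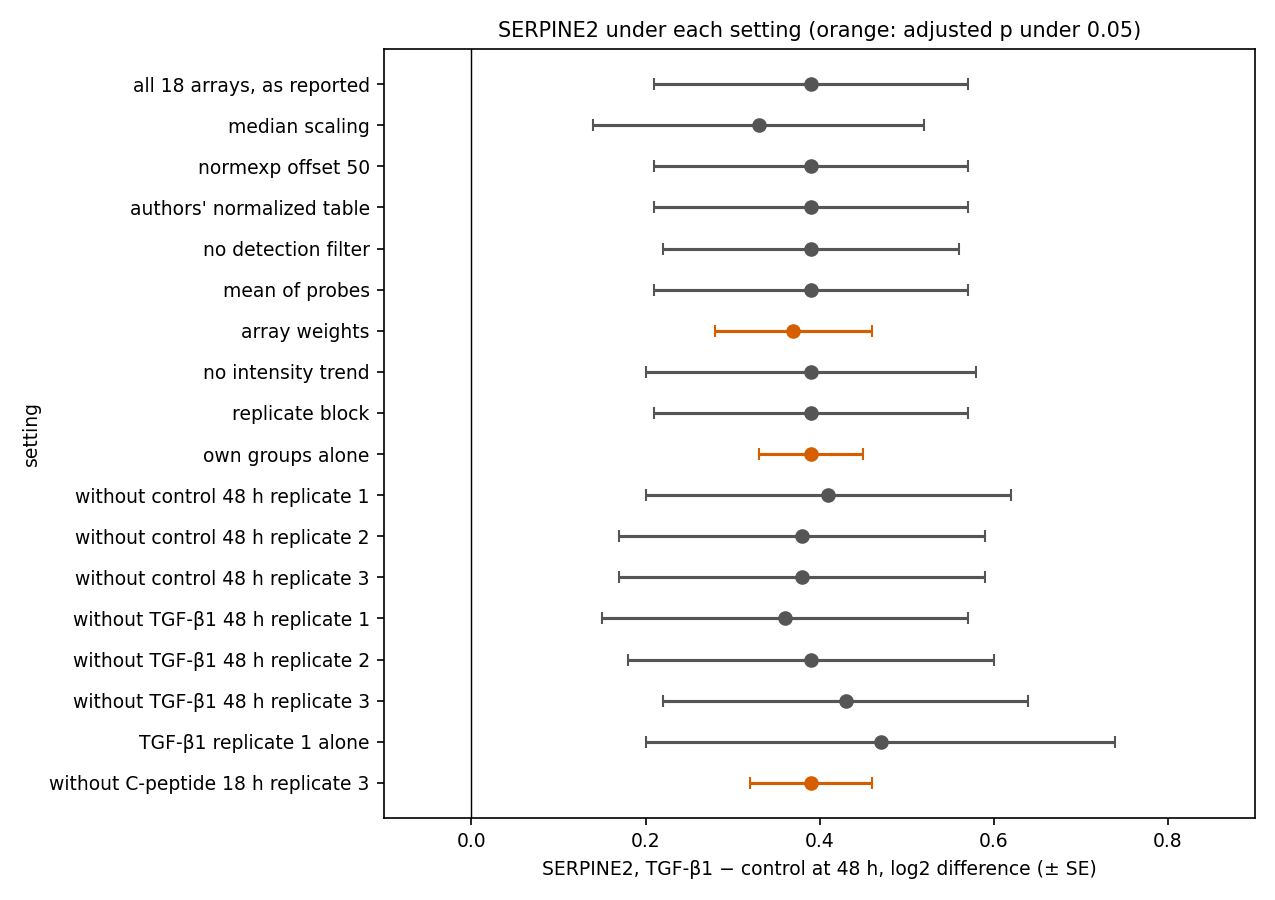
Log2 difference of SERPINE2 between TGF-beta1 and control at 48 h, with its SE, under each setting of the analysis. The difference stays between 0.33 and 0.47 in all of them, and the 3 orange settings, which give little or no weight to C-peptide 18 h replicate 3, are those with an adjusted p under 0.05.

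Plasminogen activator inhibitor 2 was not detected. The 2 SERPINB2 probes passed the detection limit on 0 of 18 arrays, with deposited intensities of -2.9 to 9.5 and -8.4 to 0.3 units around the background. Their lowest detection p was 0.0303 for one and 0.387 for the other, where detection asked for a p under 0.01. The gene therefore has only an upper bound in all 6 groups, and no fold change was formed. Each value rested on 23 to 67 beads, and those of the detected members on 21 to 56.

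C-peptide at 18 h gave lower PLAU and PLAUR readings that did not pass the test. PLAUR measured 8.11, 7.88 and 7.69 in the 18 h controls and 7.36, 7.44 and 7.58 with C-peptide, without overlap. The difference was -0.43 (SE 0.12, 95% CI -0.68 to -0.18, adjusted p = 0.0556), larger in size than that of all but 4.83% of genes. The other probes differed by -0.51 (SE 0.14, adjusted p = 0.0552), without overlap, and -0.50 (SE 0.20, adjusted p = 0.136), with overlap, in a fit that called 2.46% of all probes. For PLAU the difference was -0.21 (SE 0.09, 95% CI -0.39 to -0.03, adjusted p = 0.135).

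None of the 4 tested members was called at 18 h by limma (0 of 4, 2 at an unadjusted p under 0.05), where 2.29% of all genes were called and 19.3% did not overlap. PLAUR was called with array weights (-0.50, adjusted p = 0.0188) or without 18 h control replicate 3 (-0.54, adjusted p = 0.013), settings that called 9.02% and 14.3% of all genes. The adjusted p over its alternatives ran from 0.013 to 0.364. SERPINE2 differed by 0.16 (SE 0.18, 95% CI -0.21 to 0.54, adjusted p = 0.599), and by -0.21 without C-peptide replicate 3 (SE 0.08, adjusted p = 0.144), so that its sign rested on that array. On the same array the fibroblast marker sum was 3703.8, against 1671.9 and 2091.1 on the other 2, and the distal tubule sum was 112.7, against 290.2 and 294.3. Their part in the SERPINE2 reading was not tested. PLAT differed by -0.06 (SE 0.14, 95% CI -0.35 to 0.23).

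At 48 h the C-peptide and control readings lay close together. The differences were 0.00 for PLAU (95% CI -0.17 to 0.18), 0.00 for PLAT (95% CI -0.29 to 0.29), 0.13 for PLAUR (95% CI -0.12 to 0.37) and -0.07 for SERPINE2 (95% CI -0.44 to 0.31). All 4 overlapped between the groups, while 31.5% of all genes did not, and limma called 0 of 4 (0 at an unadjusted p under 0.05), where 5.32% of all genes were called. C-peptide added to TGF-beta1 gave differences of -0.11 for PLAU (95% CI -0.29 to 0.07), 0.01 for PLAT (95% CI -0.28 to 0.30), 0.06 for PLAUR (95% CI -0.19 to 0.31) and -0.11 for SERPINE2 (95% CI -0.49 to 0.26). Again 0 of 4 were called (0 at an unadjusted p under 0.05), where 2.15% of all genes were called. For SERPINE2 the 3 arrays with both agents lay below the 3 with TGF-beta1 alone, and 28.6% of all genes likewise did not overlap.

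The response to TGF-beta1 did not measurably differ with C-peptide. The interaction of the agents was -0.07 for PLAUR (SE 0.17, 95% CI -0.42 to 0.28), -0.05 for SERPINE2 (SE 0.25, 95% CI -0.58 to 0.49), -0.11 for PLAU (SE 0.12, 95% CI -0.37 to 0.14) and 0.02 for PLAT (SE 0.20, 95% CI -0.39 to 0.43). Limma called 0 of 4 members (0 at an unadjusted p under 0.05) and 0% of all genes. The interval for PLAUR does not reach the size of its TGF-beta1 response (0.98). That for SERPINE2 does reach the size of its TGF-beta1 difference (0.39). With the SE pooled over all 18 arrays, a full loss with C-peptide could therefore not be told from none. Without C-peptide 18 h replicate 3, a fit not planned for this comparison, the SERPINE2 interaction was -0.05 (SE 0.10). In that fit the TGF-beta1 difference with C-peptide present was 0.35 (SE 0.07), beside 0.39 (SE 0.07) without it.

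A difference in the C-peptide change of PLAUR between the 2 times was called, but lost in 12 of 21 alternatives. The change at 48 h minus that at 18 h was 0.56 (SE 0.17, 95% CI 0.21 to 0.91, adjusted p = 0.0438), the only 1 of 4 members called, where 8.92% of all genes were called. Of the other PLAUR probes, ILMN_2408543 was called (0.77, SE 0.20, adjusted p = 0.0265) and ILMN_1691508 was not (0.79, SE 0.28, adjusted p = 0.076), where 9.39% of all probes were called. Between the 2 times the C-peptide arrays differ in array set as well, and the 48 h minus 18 h controls of PLAUR differed by -0.35 (SE 0.12, 95% CI -0.60 to -0.10, adjusted p = 0.12) without overlap. Leaving out single arrays ended the call for 8 of the 12, with the adjusted p at 0.139 without 18 h control replicate 1. At the same size, the call was lost with the replicate block (adjusted p = 0.0512), with own groups alone (0.0867) and with no detection filter (0.0967). For the controls alone, limma called 0 of 4 members (2 at an unadjusted p under 0.05), where 0.00802% of all genes were called and 25.8% did not overlap.

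**Figure D4:**
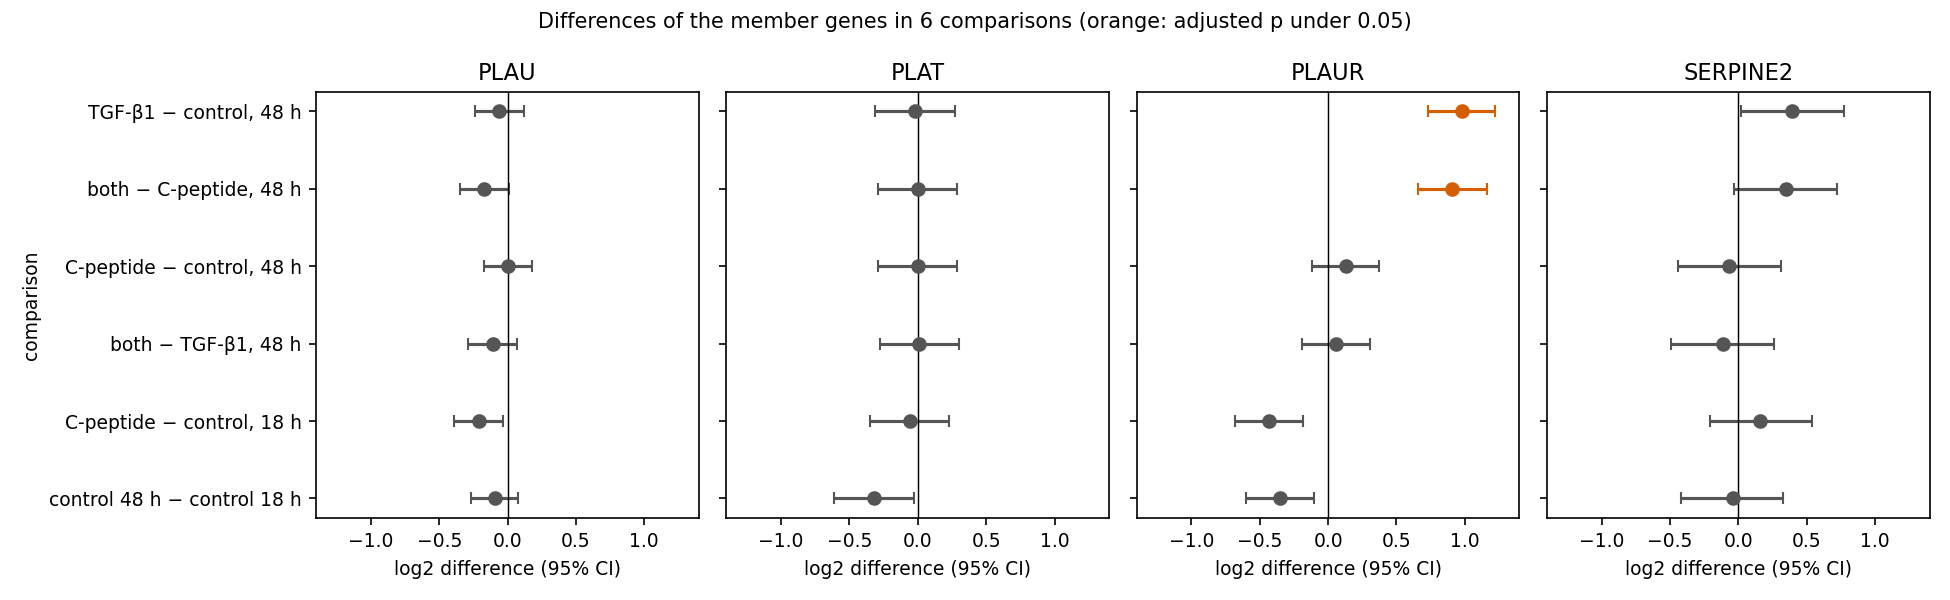
Log2 differences of the 4 tested members with their 95% confidence intervals in 6 comparisons, each first group minus second. The intervals of PLAUR are clear of 0 in both TGF-beta1 comparisons, at 0.98 and 0.91, and those of PLAU and PLAT include 0 in both.

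Around the members, 3 of 4 tested genes of the list of plasminogen and its surface receptors rose with TGF-beta1, where 45.1% of all genes were called and 21.9% were higher. PLG was detected on no array. PLGRKT, the plasminogen receptor with a C-terminal lysine, rose by 0.63 (SE 0.14, adjusted p = 0.00139), and S100A10 and ANXA2, which together form a surface complex that binds plasminogen, rose by 0.34 (SE 0.07, adjusted p = 0.000448) and 0.21 (SE 0.07, adjusted p = 0.0218). ENO1, an enolase that also binds plasminogen, differed by 0.07 (adjusted p = 0.337). The same 3 genes rose with C-peptide present, by 0.72, 0.43 and 0.36. The list's median difference was 0.28 beside -0.006 over all genes. Under median scaling in place of quantile normalization, S100A10 differed by 0.17 (adjusted p = 0.209) and ANXA2 by 0.15 (adjusted p = 0.255).

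Among partners and clearance receptors of urokinase and its receptor, 4 of 9 tested genes rose and 1 fell, with the same counts when C-peptide was present. These 5 of 9 stand beside 45.1% and 43% of all genes called, and such a share is near the background. MRC2, a collagen receptor that associates with the urokinase receptor, rose by 1.06 (SE 0.13, adjusted p = 8.88e-07), and the fibronectin receptor subunit ITGA5 rose by 0.86 (SE 0.13, adjusted p = 2.49e-05). The integrin subunits ITGAV and ITGB1 rose by 0.61 (SE 0.15) and 0.45 (SE 0.10). VLDLR, a related uptake receptor, fell by 0.69 (SE 0.12, adjusted p = 8.85e-05). No array detected LRP1, LRP2, SORL1 or VTN, so LRP1, a receptor that takes up complexes of urokinase and its inhibitors, has only an upper bound. LRPAP1, ITGB3, ITGB5 and ITGA3 differed by -0.19, 0.16, 0.17 and -0.30 and were not called. The list's median was 0.17.

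Among proteases that activate pro-urokinase and their inhibitors, 0 of 6 tested genes rose and 3 fell, again in both TGF-beta1 comparisons. The 3 of 6 called are near the 45.1% and 43% of all genes. The transmembrane protease hepsin, HPN, fell by 1.77 (SE 0.20, adjusted p = 3.44e-07) and fell by 1.86 with C-peptide present. SPINT1, an inhibitor of hepsin and matriptase, fell by 0.75 (SE 0.13) and fell by 1.06 with C-peptide, and coagulation factor F12 fell by 0.66 (SE 0.14) and fell by 0.47 with C-peptide. CTSB, CTSL and SPINT2 differed by -0.13, -0.02 and -0.08 and were not called. ST14, which encodes matriptase, and KLKB1 were detected on no array. The list's median was -0.40.

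Of the other inhibitors of activators and plasmin, 3 were tested and 4 undetected. SERPINI1, neuroserpin, an inhibitor of tissue-type plasminogen activator, rose by 0.66 (SE 0.13, adjusted p = 0.000304) and by 0.53 with C-peptide present. SERPINF2, the plasmin inhibitor alpha-2-antiplasmin, was detected on 3 of 3 control arrays and on 0 of 3 TGF-beta1 arrays and was at least 1.70-fold lower (adjusted p = 1.14e-08). The same bound, at least 1.70-fold, held with C-peptide (adjusted p = 1.94e-07). SERPINB6 differed by 0.16 (adjusted p = 0.108). SERPINA5, A2M, PZP and CPB2 were undetected, and the median of the 3 tested was 0.16.

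Of 11 other clade B serpins in the list that goes with SERPINB2, 9 were detected on no array and 2 were tested. SERPINB6 is also of clade B, is counted with the inhibitors above and was detected on 18 of 18 arrays. SERPINB1, an inhibitor of neutrophil proteases, fell by 0.97 (SE 0.11, adjusted p = 4.1e-07) and fell by 0.88 with C-peptide, and SERPINB8, of the same clade, differed by -0.04 and 0.28 and was not called. The median of these 2 was -0.50.

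In the tissue factor and thrombin list, which touches SERPINE2 through its inhibition of thrombin, 3 of 7 tested genes rose and 1 fell, where 45.1% of all genes were called and 21.9% were higher. TFPI2, a Kunitz inhibitor of plasmin and other proteases, rose by 2.57 (SE 0.24, adjusted p = 3.07e-08), and F2RL1, protease-activated receptor 2, rose by 0.67 (SE 0.10, adjusted p = 8.03e-06). F3, tissue factor, rose by 0.39 (SE 0.16, adjusted p = 0.0479), a call lost in 8 of 17 alternatives. The single gene that fell, named after its value was seen, was PROCR, the endothelial protein C receptor (-0.23, SE 0.09, adjusted p = 0.0485). With C-peptide present TFPI2 and F2RL1 rose by 2.02 and 0.69, F3 differed by 0.25 (adjusted p = 0.199) and PROCR by -0.22 (adjusted p = 0.0593), so that 2 of 7 were called, where 43% of all genes were. F2R, the thrombin receptor, differed by 0.00 (adjusted p = 0.995), and the list's median was 0.00. F2RL2 and TFPI differed by -0.48 and -0.15 and were not called, THBD was detected on no array and no probe was matched to F2.

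**Figure D5:**
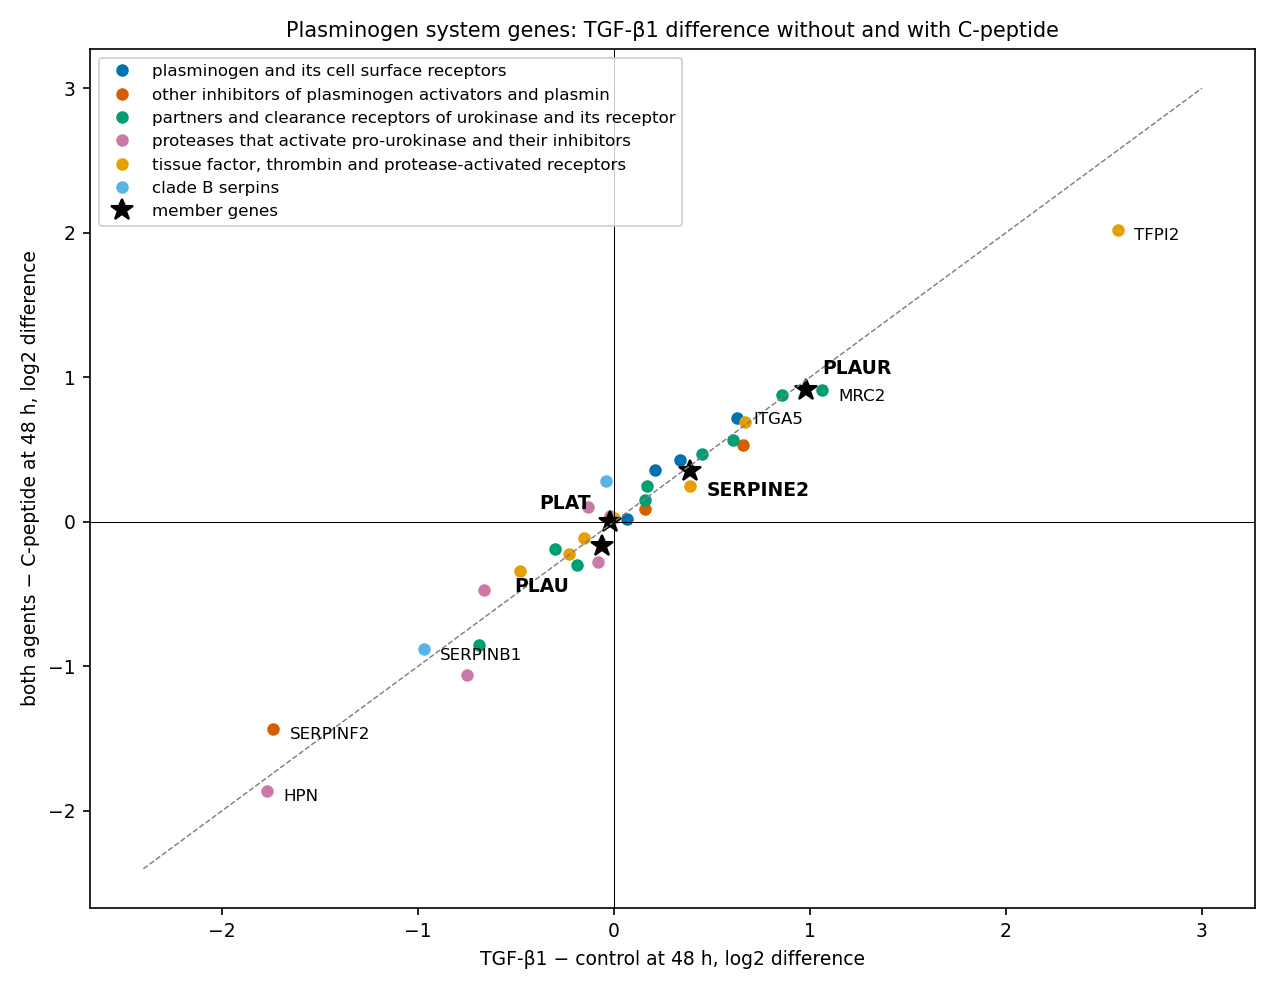
Log2 difference with TGF-beta1 without C-peptide (horizontal) and with it (vertical) for the tested genes of the 6 lists, coloured by list, and for the 4 members (stars), with the dashed line marking equal differences. The axes share no arrays: PLAUR lies at 0.98 and 0.91 beside MRC2 and ITGA5, HPN at -1.77 and -1.86 and TFPI2 at 2.57 and 2.02 lie at the ends, and SERPINF2, undetected with TGF-beta1, is drawn at its measured difference, which is no bound.

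In the C-peptide comparisons few listed genes were called. At 18 h SERPINB6 fell by 0.32 (adjusted p = 0.0454) and ITGAV rose by 0.65 (adjusted p = 0.0384), where 2.29% of all genes were called. Both calls were lost in fits of their own arrays alone (adjusted p = 0.364 for each). Without C-peptide replicate 3, ITGAV differed by 0.42 (adjusted p = 0.0887) and SERPINB6 by -0.22 (adjusted p = 0.129). The C-peptide change of ITGAV and ITGA3 was lower at 48 h than at 18 h, by -0.93 (adjusted p = 0.0182) and -0.69 (adjusted p = 0.0253). In this comparison 8.92% of all genes were called. These calls were also lost with own groups alone (adjusted p = 0.061 for ITGAV and 0.0689 for ITGA3). The 48 h C-peptide change cannot be told apart from the array set.

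Across the 18 arrays the members did not follow 1 shared pattern. Pearson's r between PLAUR and SERPINE2 was 0.49, and 0.91 over the 17 arrays left when C-peptide 18 h replicate 3 was set aside. PLAU and PLAT gave 0.23, and 0.59 over those 17 arrays. PLAU and SERPINE2 gave -0.50 and -0.29, and the remaining pairs lay between -0.23 and 0.25, or -0.35 and -0.09. The points share treatments and array sets, so these values describe the arrays. The genes whose values ran most like PLAUR were UCK2 (r = 0.97), LGALS1 (0.97) and RRP7A (0.97), and those most like SERPINE2 were ST3GAL1 (0.94), ZC3H12A (0.94) and PNRC2 (0.93). For PLAU the most alike over 18 arrays were KCTD10 (0.86), WARS1 (0.85) and DIDO1 (0.83), and for PLAT PEX26 (0.88), SLC35D2 (0.81) and TFPI (0.79). Over the 17 arrays these values were 0.83, 0.85 and 0.79 for PLAU and 0.83, 0.83 and 0.70 for PLAT.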

How the data were processed

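RNA of 18 flasks was hybridised to Illumina HumanWG-6 arrays, 1 per flask. The deposited table holds mean bead intensity exported from GenomeStudio 1.1.1 with no normalization, per the file headers, and 23.4% to 28.1% of probes per array are below 0. The deposited detection value is a fraction, 1 minus the detection p. The authors also deposited their own normalized intensity, linear, which served as an alternative. Its columns have a median of 5, and its centring and method are not given in the sources used here.

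Intensities were normalized with neqc (offset 16, quantile, log2) in limma 3.58.1 under R 4.3.3. Probes with a detection p under 0.01 on at least 3 arrays were kept (16322), and the probe of highest mean stood for its gene (12468 genes). Of 48803 probes, 22068 carried a current RefSeq symbol and 5138 an older one with a single successor. Group means of all 18 arrays were fitted in limma with an intensity trend (12 residual degrees of freedom), and two-sided p-values were adjusted by Benjamini-Hochberg over all genes. For groups without detection, a fold is given as at least the ratio to the lowest signal among detected probes, array by array. The script was tested on simulated data.

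Groups follow the sample titles. The descriptions of TGF-beta1 replicates 2 and 3 name TGF-b2 and TGF-b3, so a fit with replicate 1 alone was added. The replicate numbers do not pair the arrays (deviations of 45 same-numbered pairs, r = -0.34 to 0.28). The members, the gene lists and the tests were chosen with earlier results of these data known. From the lists, the text names up to 3 called genes with the largest TGF-beta1 difference and any gene called for C-peptide, and ITGAV, ITGB1 and genes that were not called were named after their values were seen. For each tested member the 3 genes of highest Pearson's r over the 18 arrays are named. One listed gene stands in no count and is not reported here.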

Additional observations from a re-analysis of the deposited data

Results flagged for a closer look

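The C-peptide change of PLAUR, which encodes the urokinase receptor, was 0.56 higher on the log2 scale at 48 h than at 18 h in a test of the difference itself (SE 0.17, limma adjusted p = 0.0438, n = 3 arrays in each of 4 groups). The change was 0.13 at 48 h, where the groups overlapped, and -0.43 at 18 h, where all 3 C-peptide arrays lay below all 3 controls. Neither change was called by itself. With the size unchanged, the adjusted p was 0.0512 with the replicate block, 0.0867 with own groups alone and 0.0967 with no detection filter. Under median scaling the difference was 0.21 (adjusted p = 0.443), where the median of all genes shifted by -0.30. At 48 h C-peptide cannot be told apart from the array set.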

How the results depend on the processing

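The TGF-beta1 rise of PLAUR was called in all 17 alternatives without C-peptide (0.83 to 1.05) and in all 16 with it (0.78 to 1.01). With 1 array left out it ran from 0.92 to 1.02 and from 0.83 to 1.01. The count of members called for TGF-beta1 went from 1 to 2 with array weights, with own groups alone and without C-peptide 18 h replicate 3 (1 to 2 when single arrays were left out), and SERPINE2 was the gene added. With C-peptide present the count went from 1 to 2 with array weights, to 3 with own groups alone, where SERPINE2 was added and PLAU was called lower, and ran from 1 to 2 when single arrays were left out. For C-peptide at 18 h it went from 0 to 1 with array weights, and from 0 to 1 when single arrays were left out, in each case through PLAUR.

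For the C-peptide change at 48 h against that at 18 h, the count fell from 1 to 0 under median scaling, without a detection filter, with own groups alone and with the replicate block (PLAUR 0.56, adjusted p = 0.0512), and ran from 0 to 1 when single arrays were left out. No other member call changed with the replicate block. For the 48 h against the 18 h controls the count went from 0 to 1 under median scaling, to 2 with array weights (PLAT and PLAUR, lower) and ran from 0 to 1 when single arrays were left out (PLAUR, without 18 h control replicate 3). These settings called 58.1%, 23.4% and 12.6% of all genes, beside 0.00802% as reported. Under median scaling the PLAU difference of the controls reversed from -0.09 to 0.26 (adjusted p = 0.0446). The cause of these changes was not tested.

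Median scaling shifted the median of all genes by 0.36 in the controls, -0.30 for the C-peptide change between times, -0.22 for C-peptide with TGF-beta1, -0.17 and 0.12 for C-peptide at 48 h and 18 h, and -0.11 for TGF-beta1 with C-peptide. In that order the share of calls that were higher went from 0% to 99.9%, from 47.7% to 2.1%, from 69.8% to 2.4%, from 71.8% to 8.7%, from 50% to 97.7% and from 49.5% to 33.7%. The share of all genes called for TGF-beta1 ran from 13.9% without a detection filter to 55.5% with array weights, beside 45.1% as reported, and with C-peptide from 13.3% to 56.9%, beside 43%. For C-peptide it ran from 1.52% to 25.2% at 48 h, from 0% to 14.3% at 18 h and from 0.0241% to 24% with TGF-beta1, for the change between times from 1.26% to 27.9%, and for the controls from 0% to 58.1%.

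The number of arrays, 3 a group, limits the precision, and SERPINB2 lies below what these arrays detect. Other calls that some alternatives lost were those of ANXA2, F3, S100A10, F12 and PLGRKT for TGF-beta1, SERPINI1 for TGF-beta1 with C-peptide, and SERPINB6, ITGAV and ITGA3 in the C-peptide comparisons. F12 (-0.45, SE 0.20, adjusted p = 0.103) and PLGRKT (0.51, SE 0.21, adjusted p = 0.0726) lost theirs when TGF-beta1 replicate 1 stood alone, a fit that assumes this array varies like the other groups.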
